A study of Homo sapiens with 9 samples.

Results

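Small nucleolar RNA host genes are spliced genes whose introns release small nucleolar RNAs (snoRNAs), and 29 of the 56865 genes summed here were taken as members. They are the genes of GENCODE 29 named SNHG and a number, with GAS5, ZFAS1, EPB41L4A-AS1 and DANCR. SNHG28 is listed under 2 gene identifiers, so the 29 entries carry 28 symbols. The libraries were made from poly(A)-selected RNA of cells labelled BxPC3, a human pancreatic adenocarcinoma line, and every sample carries the genotype label p53Y220C/-. The groups were MS172 (3 libraries), PK9328 (3 libraries) and vehicle, DMSO (3 libraries). The treatment protocol gives 5 µM and 6 h for PK9328 and a compound it calls MS78, while MS172 is the name in the sample titles, in the treatment labels and in the design text. PK9328 has been described elsewhere as a small molecule that binds p53 carrying the Y220C change. Nothing in the labels says whether the 3 libraries of a group came from separate cultures, so the p-values cover the spread between libraries, which may be technical.

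The libraries held 24077353 to 28031886 estimated reads each. Of 13914 genes that passed the filter on low counts, 24 were members. Levels are in CPM, counts scaled to a common library size. Among 18 markers of ductal and other epithelial cells, 12 were below 1 CPM in all libraries, EPCAM and CDH1 among them, while the keratins KRT8 and KRT18 and the mesenchymal filament gene VIM averaged 745, 820 and 9220 CPM. The ductal and epithelial markers KRT19, SOX9 and CLDN4 averaged 321, 297 and 144 CPM. Of 12 mesenchymal markers, 5 were below 1 CPM in all libraries, FN1 and CDH2 among them. COL1A1 averaged 1.47 CPM, while COL1A2 averaged 2239 CPM and ZEB1 92.3 CPM. Of 5 leukocyte markers, 3 were below 1 CPM in all libraries, while CD68 averaged 20.5 CPM and LYZ 1.21 CPM. All 6 acinar and endocrine markers and all 5 endothelial markers lay under 1 CPM everywhere. With 12 of 18 ductal and epithelial markers below 1 CPM and VIM high, the markers do not bear out the label of a pancreatic adenocarcinoma line. The identity of the line was not tested, and the cells are called by their label only. The summed ductal and epithelial markers stood at 2625 to 2788 CPM with MS172, 2011 to 2091 CPM with PK9328 and 2157 to 2325 CPM with DMSO. The summed mesenchymal markers stood at 12420 to 12940 CPM with MS172, 10000 to 10260 CPM with PK9328 and 11800 to 11980 CPM with DMSO. The part of these sums in the results below was not tested.

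The snoRNAs guide chemical modification of ribosomal and spliceosomal RNA: box C/D snoRNAs direct ribose methylation and box H/ACA snoRNAs direct pseudouridylation. After an intron is spliced out, proteins bound to the snoRNA protect it while the rest of the intron is degraded. The joined exons of many host genes, GAS5 and SNHG1 among them, encode no conserved protein and are bound by ribosomes. Host genes as a group are known for starting with a run of pyrimidines, like the mRNAs of ribosomal proteins. A stop codon met early, with exon junctions after it, makes several of these RNAs known substrates of nonsense-mediated decay, which depends on translation. Inhibitors of translation are known to raise GAS5 RNA for that reason. Libraries selected for poly(A) report the joined exons and not the snoRNAs themselves. GENCODE 29 places snoRNA and scaRNA entries within most members, and 125 of their symbols were found among the deposited transcripts. Counted by symbol, these had 0 to 6 estimated reads in all per library. GENCODE 29 places none within GAS5, so its snoRNAs are not in this count.

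Several spliced RNAs with large differences are introduced by their first reading frames, since these frames set where a ribosome entering at the first ATG would stop. Each line gives the frame from the first ATG to its stop codon, both in capitals, in the transcript of that gene with the most estimated reads (GENCODE 29, GRCh38).
SNHG1-213: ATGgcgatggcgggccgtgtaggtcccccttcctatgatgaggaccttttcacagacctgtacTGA
SNHG15-203: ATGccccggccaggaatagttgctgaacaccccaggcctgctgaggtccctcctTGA
SNHG17-206: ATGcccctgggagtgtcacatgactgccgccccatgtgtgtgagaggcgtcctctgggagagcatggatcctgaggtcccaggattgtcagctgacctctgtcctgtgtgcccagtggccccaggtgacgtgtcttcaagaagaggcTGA
SNHG8-201: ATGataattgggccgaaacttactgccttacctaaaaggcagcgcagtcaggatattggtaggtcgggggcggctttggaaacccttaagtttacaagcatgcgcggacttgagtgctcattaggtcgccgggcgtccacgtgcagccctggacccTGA
SNHG16-202: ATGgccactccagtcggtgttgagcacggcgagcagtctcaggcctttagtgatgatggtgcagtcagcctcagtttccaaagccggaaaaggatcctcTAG
The SNHG1 frame holds 21 codons before the stop, and 9 exon junctions of the transcript lie more than 50 bases after it. The SNHG15 frame holds 18 codons, with 1 such junction. The SNHG17 frame holds 49 codons and the SNHG8 frame 52 codons, with 2 such junctions each. SNHG16-202, whose gene differed from DMSO in the other direction with MS172, has a frame of 33 codons with 1 junction after it. Of 24 such transcripts, 1 for each tested member, 23 hold an ATG, and the frames span 1 to 117 codons. In 20 of these 23 at least 1 junction lies more than 50 bases after the stop, and in SNHG3, SNHG25 and SNHG26 none does. Whether these frames are read was not measured.

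The start sites of the members are shown because the group is known for pyrimidine starts. The windows run from 20 bases before the RefSeq start (GRCh38.p14) to the 20th base of the transcript, on the strand of the gene, and capitals mark the longest run of C and T that touches the 5 bases on either side of the start.
SNHG1, chr11:62855866-62855905, minus strand: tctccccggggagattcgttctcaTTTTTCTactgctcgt
SNHG17, chr20:38435309-38435348, minus strand: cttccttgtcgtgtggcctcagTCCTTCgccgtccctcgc
SNHG8, chr4:118278742-118278781, plus strand: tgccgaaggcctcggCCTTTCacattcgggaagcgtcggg
SNHG7, chr9:136728165-136728204, minus strand: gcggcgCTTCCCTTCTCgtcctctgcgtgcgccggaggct
ZFAS1, chr20:49278622-49278661, plus strand: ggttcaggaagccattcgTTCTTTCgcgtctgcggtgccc
SNHG16, chr17:76557744-76557783, plus strand: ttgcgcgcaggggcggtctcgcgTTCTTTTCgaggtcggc
SNHG20, chr17:77088623-77088662, plus strand: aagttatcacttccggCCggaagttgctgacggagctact
SNHG11, chr20:38446634-38446673, plus strand: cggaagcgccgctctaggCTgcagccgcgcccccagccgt
A run of at least 6 such bases was present in 12 of the 20 tested members with a RefSeq window. The same run was present in 61 of 84 ribosomal protein genes (72.6%) and in 8100 of 35116 windows of all genes (23.1%). SNHG20, SNHG11 and GAS5 have no run of that length, and their RNAs were lower with MS172 like those of SNHG1 and SNHG17. The longest run in the GAS5 window is 3 bases, and its RefSeq start lies upstream of the GENCODE start. SNHG14, counted among the 12, also has its RefSeq start (24823608 on chromosome 15) upstream of its GENCODE start (24978583). The RefSeq start of SNHG20 (77088643) lies downstream of its GENCODE start (77086716), as do those of ZFAS1 and SNHG12. Whether a window holds a run therefore depends on the annotated start used. In SNHG14 and SNHG7 the run ends before the RefSeq start. A run in these letters is a description of the window and not a measured start of transcription.

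In DMSO the members differed in level by more than 3 orders of magnitude on the length-normalised TPM scale. SNHG5, host of a pair of box C/D snoRNAs (SNORD50A and SNORD50B), stood first at 1113 ± 32.9 TPM (SD, n = 3) and made up 51.3% of the summed TPM of the members. GAS5, a host of 10 box C/D snoRNAs, followed at 203 ± 27.0 TPM. SNHG6 stood at 147 ± 5.81 TPM, and the next levels were 124 ± 8.07 TPM for SNHG19, 118 ± 13.3 TPM for ZFAS1 and 98.1 ± 4.23 TPM for SNHG16. The levels of SNHG19 and ZFAS1 differed by less than either SD. SNHG8 came next at 83.8 ± 9.03 TPM. SNHG17 (40.6 ± 3.86 TPM), DANCR (39.8 ± 0.595 TPM), SNHG1 (39.7 ± 5.01 TPM) and SNHG7 (36.4 ± 3.01 TPM) followed. From SNHG17 to SNHG7, neighbours in that order differed by less than the larger SD of the pair. SNHG26 was the lowest tested member at 0.888 ± 0.330 TPM. The remaining 5 entries, SNHG18, SNHG22, SNHG27 and both SNHG28 identifiers, stayed at or below 0.416 CPM in every library and were not tested, with SNHG18 and SNHG27 listed at 0 in all 9. The TPM of all members together came to 1889 ± 36.9 with MS172, 2451 ± 13.4 with PK9328 and 2169 ± 92.9 with DMSO (SD, n = 3 each). The single-library TPM sums of the 3 groups did not overlap. In CPM, used in the comparisons below, the sums of MS172 (664 to 708) and DMSO (673 to 729) overlapped. Those of PK9328 were 796 to 833 CPM. SNHG5 averaged 1045 TPM with MS172 and 1113 TPM with DMSO, but 208 CPM with MS172 and 197 CPM with DMSO.

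**Figure D1:**
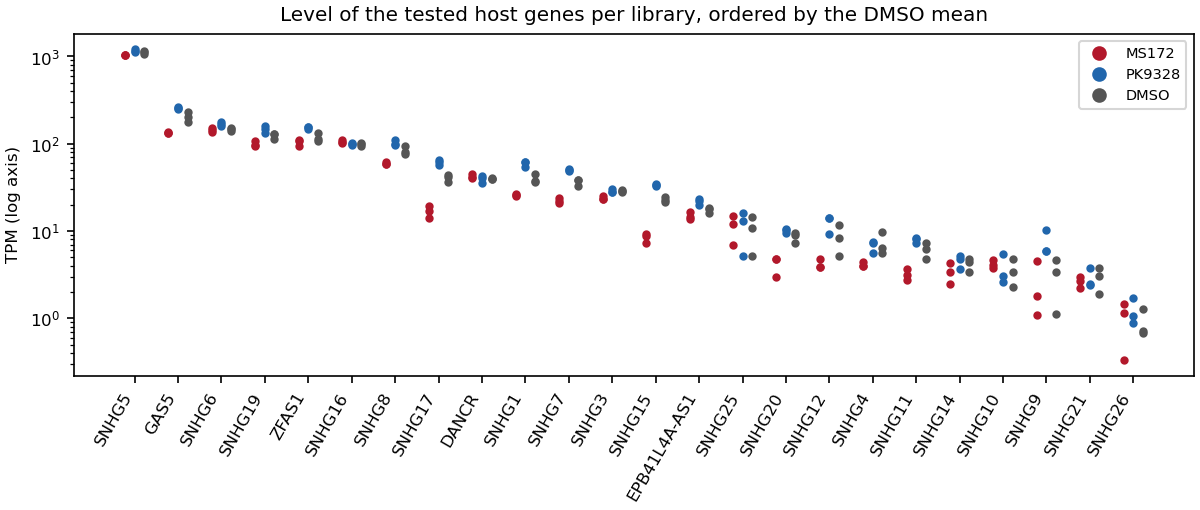
TPM of the 24 tested host genes (log axis), 1 point per library, ordered from left to right by the DMSO mean, with MS172 left of PK9328 and DMSO. SNHG5 stands above 1000 TPM in every library, and SNHG17 and SNHG15 show the widest gaps between the compounds among genes above 20 TPM in DMSO.

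With MS172, 9 of the 24 tested host genes fell and 2 rose against DMSO (edgeR quasi-likelihood test, Benjamini-Hochberg adjusted p under 0.05 over all genes tested). The falls lay between 0.50 and 1.26 on the log2 scale in SNHG15, SNHG17, SNHG20, SNHG11, SNHG1, SNHG4, SNHG8, SNHG7 and GAS5, and the rises were 0.25 in DANCR and 0.30 in SNHG16. Among all genes tested, 17.2% fell and 17.9% rose, and 35.1% were called in either direction, against 45.8% of the tested members. The median log2 fold change of the tested members was -0.11, against -0.02 over all genes. In RNA from whole cultures, fewer cells with a transcript and less of it per cell cannot be told apart.

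SNHG15, host of SNORA9 at chr7:44983023-44986961, had 6.37, 6.26 and 4.84 CPM with MS172, against 12.8, 14.1 and 14.9 CPM with DMSO. SNHG17, which carries box H/ACA snoRNAs of the SNORA71 family in the introns at chr20:38420588-38435353, had 9.06, 6.92 and 7.26 CPM with MS172, against 16.4, 18.0 and 18.7 CPM with DMSO. In both genes the highest MS172 library lay well below the lowest DMSO library. The log2 fold changes were -1.26 ± 0.102 (SE, adjusted p = 5.29e-11) for SNHG15 and -1.19 ± 0.0947 (adjusted p = 7.84e-11) for SNHG17 (edgeR). SNHG11, the neighbour of SNHG17 and host of SNORA60 and SNORA71E at chr20:38446578-38450921, had 1.96, 2.35 and 2.34 CPM with MS172, against 3.45, 4.86 and 4.65 CPM with DMSO. The groups did not overlap, and SNHG11 fell by 0.96 ± 0.165 on the log2 scale (edgeR, adjusted p = 3.46e-05). SNHG20 at chr17:77086716-77099902 had 5.67, 3.95 and 5.26 CPM with MS172, against 9.71, 9.22 and 10.7 CPM with DMSO. All 3 MS172 values were the lower ones, and SNHG20 fell by 0.99 ± 0.119 (edgeR, adjusted p = 1.48e-07). SNHG20 shares 11154 bases of its span with SEC14L1 on the same strand, and single values of the gene are uncertain for that reason. SEC14L1 itself had a log2 fold change of -0.04 (adjusted p = 0.416).

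SNHG1, whose introns hold the box C/D snoRNAs SNORD22 and SNORD25 to SNORD31 at chr11:62851988-62855914, had 15.9, 16.5 and 16.1 CPM with MS172, against 24.3, 27.3 and 24.9 CPM with DMSO. The MS172 values were almost identical to each other and below every DMSO value, and the log2 fold change was -0.66 ± 0.0701 (edgeR, adjusted p = 1.35e-08). SNHG8, host of SNORA24 at chr4:118278709-118279823, had 11.6, 11.5 and 10.4 CPM with MS172, against 14.6, 17.9 and 16.7 CPM with DMSO. SNHG7, host of SNORA17A and SNORA17B at chr9:136721366-136728184, had 11.6, 12.4 and 10.8 CPM with MS172, against 15.0, 16.8 and 17.9 CPM with DMSO. Neither gene's groups overlapped. Their log2 fold changes were -0.56 ± 0.0887 (adjusted p = 1.26e-05) for SNHG8 and -0.52 ± 0.0823 (adjusted p = 1.30e-05) for SNHG7 (edgeR). GAS5, named for its abundance in growth-arrested cells, at chr1:173863900-173868882, had 46.8, 43.5 and 41.7 CPM with MS172, against 52.1, 68.9 and 65.4 CPM with DMSO. The DMSO libraries were spread more widely than those of MS172, and the lowest of them still stood above all 3. The log2 fold change of GAS5 was -0.50 ± 0.102 (edgeR, adjusted p = 0.00569).

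The 2 rises were smaller. SNHG16, host of the SNORD1 cluster at chr17:76557766-76565348, had 191, 198 and 199 CPM with MS172, against 162, 158 and 160 CPM with DMSO. The libraries of each group lay close together, and the log2 fold change of 0.30 ± 0.0350 was called (edgeR, adjusted p = 1.09e-07). DANCR, an RNA known for keeping epidermal progenitor cells undifferentiated and host of SNORA26 at chr4:52712404-52720351, had 26.2, 23.7 and 22.6 CPM with MS172, against 20.3, 19.4 and 21.5 CPM with DMSO. The groups lay close without overlap, and the log2 fold change was 0.25 ± 0.0765 (edgeR, adjusted p = 0.0119).

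Host genes with precise estimates that did not pass the threshold with MS172 included ZFAS1, SNHG3 and SNHG5. ZFAS1, host of the SNORD12 group, had 43.7, 42.4 and 37.9 CPM with MS172, against 40.9, 41.6 and 45.4 CPM with DMSO, and its log2 fold change was -0.05 (95% interval -0.16 to 0.07). SNHG3, host of SNORA73A and SNORA73B and uncertain because it lies within RCC1 on the same strand, differed by -0.06 (95% interval -0.17 to 0.05). SNHG5 differed by 0.08 (SE 0.0396, adjusted p = 0.113). The groups overlapped in all 3. EPB41L4A-AS1, host of SNORA13, had 9.51, 7.90 and 6.92 CPM with MS172, against 8.45, 8.91 and 10.2 CPM with DMSO. Its values overlapped, and the interval of its log2 fold change ran from -0.41 to 0.06. Over these 24 genes the unadjusted p was under 0.05 in 13. With 1 library left out, DANCR lost its call without MS172 library 1 (0.19, adjusted p = 0.0981) or DMSO library 2 (0.21, adjusted p = 0.061). SNHG4, which lies across MATR3 and is uncertain for that reason, had 2.22, 1.97 and 1.79 CPM with MS172, against 3.91, 2.28 and 2.73 CPM with DMSO. It lost its call (-0.58, adjusted p = 0.0248) without DMSO library 1 (-0.33, adjusted p = 0.236), MS172 library 2 (adjusted p = 0.0641) or MS172 library 3 (adjusted p = 0.0855), while SNHG12 gained one without DMSO library 1 (-0.66, adjusted p = 0.00855) and SNHG5 without DMSO library 3 (0.12, adjusted p = 0.039) or MS172 library 3 (0.11, adjusted p = 0.0436). With offsets for GC content and transcript length DANCR was not called (0.17 and 0.14), while SNHG19 (-0.30 and -0.33) and ZFAS1 (-0.15 and -0.18) were called lower, as was SNHG12 (-0.57 and -0.60). SNHG12 was called lower also without a filter, with the 1 CPM filter, with length-scaled TPM and with fragment length as a covariate (adjusted p = 0.036 to 0.048). With the offset that set the library level, EPB41L4A-AS1 (-0.28) and SNHG5 (-0.09, adjusted p = 0.0406) were lower too. SNHG4 also missed the threshold in DESeq2 (adjusted p = 0.0552), limma-voom (adjusted p = 0.0534) and length-scaled TPM (adjusted p = 0.0686), and DANCR in length-scaled TPM (adjusted p = 0.0615).

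**Figure D2:**
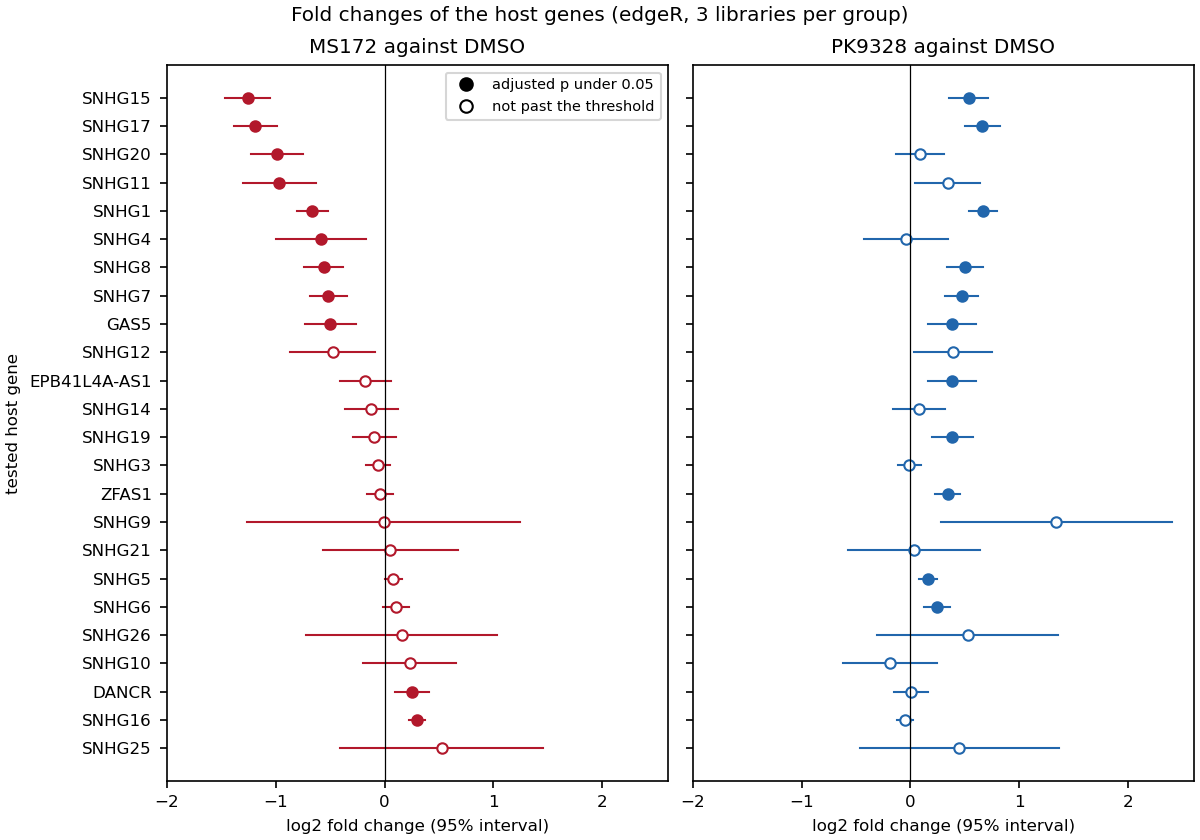
Log2 fold changes with 95% intervals (edgeR, 3 libraries per group) of the 24 tested host genes, MS172 against DMSO on the left and PK9328 against DMSO on the right, ordered by the MS172 value. Filled points passed an adjusted p under 0.05: 9 lie below 0 and 2 above on the left, and 11 lie above 0 on the right.

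With PK9328 the called differences went the other way: 11 of the 24 tested host genes rose against DMSO, by 0.16 to 0.67 on the log2 scale, and 0 fell (edgeR). At an unadjusted p under 0.05, 14 members were higher and 0 lower, and DESeq2 and limma-voom each called 11. The median over the tested members was 0.36, against 0.00229 over all genes, and 20 of the 24 fold changes were above 0. Of all genes tested, 7.98% rose and 7.48% fell, 15.5% in all. The comparisons of both compounds share the DMSO libraries. Of the 9 host genes that fell with MS172, 6 rose with PK9328 (SNHG1, SNHG17, SNHG15, SNHG8, SNHG7 and GAS5), and SNHG20, SNHG11 and SNHG4 did not pass the threshold. Another 5 rose with PK9328 and were not called with MS172 (ZFAS1, SNHG19, EPB41L4A-AS1, SNHG6 and SNHG5).

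SNHG1 had 40.9, 37.4 and 43.5 CPM with PK9328, against 24.3, 27.3 and 24.9 CPM with DMSO. SNHG17 had 28.2, 25.7 and 29.97 CPM with PK9328, against 16.4, 18.0 and 18.7 CPM with DMSO. Every PK9328 value stood above every DMSO value in both genes. Their log2 fold changes were 0.67 ± 0.0623 (SE, adjusted p = 4.02e-09) and 0.66 ± 0.0799 (adjusted p = 7.61e-07) (edgeR). SNHG15 had 19.5, 19.5 and 21.3 CPM with PK9328, against 12.8, 14.1 and 14.9 CPM with DMSO. SNHG8 had 23.0, 21.3 and 25.4 CPM with PK9328, against 14.6, 17.9 and 16.7 CPM with DMSO. SNHG7 had 23.1, 22.1 and 23.6 CPM with PK9328, against 15.0, 16.8 and 17.9 CPM with DMSO. The groups of these 3 genes did not overlap, and their log2 fold changes were 0.53 ± 0.0861, 0.50 ± 0.0804 and 0.47 ± 0.0750 (adjusted p = 5.17e-05, 4.72e-05 and 4.54e-05, edgeR).

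GAS5 had 82.1, 77.1 and 83.7 CPM with PK9328, against 52.1, 68.9 and 65.4 CPM with DMSO. The lowest PK9328 library stood above the highest DMSO library, and GAS5 rose by 0.38 ± 0.0958 (edgeR, adjusted p = 0.0316). ZFAS1, which starts head to head with the helicase gene ZNFX1, had 54.7, 51.1 and 56.2 CPM with PK9328, against 40.9, 41.6 and 45.4 CPM with DMSO. The groups did not overlap, and the log2 fold change was 0.34 ± 0.0561 (edgeR, adjusted p = 6.98e-05). SNHG19, host of SNORD60, had 18.0, 15.0 and 18.1 CPM with PK9328, against 11.98, 13.0 and 14.2 CPM with DMSO. EPB41L4A-AS1 had 11.7, 11.03 and 13.2 CPM with PK9328, against 8.45, 8.91 and 10.2 CPM with DMSO. Both genes were separated by a narrow gap and rose by 0.38 (adjusted p = 0.00458 for SNHG19 and 0.0145 for EPB41L4A-AS1, edgeR). SNHG6, host of SNORD87, had 36.0, 33.5 and 35.9 CPM with PK9328, against 28.8, 29.1 and 30.9 CPM with DMSO. SNHG5 had 213, 224 and 224 CPM with PK9328, against 189, 196 and 207 CPM with DMSO. The rises of these abundant RNAs were small, 0.25 for SNHG6 and 0.16 for SNHG5 (adjusted p = 0.00347 and 0.00447, edgeR). DANCR had 18.2, 20.4 and 22.7 CPM with PK9328, against 20.3, 19.4 and 21.5 CPM with DMSO. Its interval, -0.15 to 0.16, spans 0, and the groups overlapped. SNHG16 stood at 155, 154 and 154 CPM with PK9328, against 162, 158 and 160 CPM with DMSO, and its log2 fold change of -0.05 was not called (adjusted p = 0.409).

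Fragment lengths, taken as the median difference between length and effective length of long transcripts, were 249.5 to 263.0 bases in the PK9328 libraries, against 274.1 to 292.8 bases with MS172 and 281.2 to 289.1 bases with DMSO. Many host RNAs are short, such as SNHG19-201 with 342 bases and SNHG5-202 with 430 bases. Fragment length and PK9328 cannot be told apart in this design. In counts rebuilt from length-scaled TPM, 5 of the 11 rises passed the threshold, in SNHG1 (0.52), SNHG17 (0.54), SNHG15 (0.51), SNHG7 (0.41) and GAS5 (0.30). With fragment length as a covariate 1 passed, SNHG1 (0.54, adjusted p = 0.0329), and the values of SNHG19 and EPB41L4A-AS1 became -0.05 and -0.16. The call of GAS5 was also lost without DMSO library 3 (adjusted p = 0.0651) or any PK9328 library (adjusted p = 0.0974, 0.0534 and 0.111 without libraries 1, 2 and 3), at log2 fold changes of 0.35 to 0.42. It was lost too with the replicate number as a block (adjusted p = 0.0754), with both offsets for GC content and length, and in a fit of PK9328 and DMSO alone. With those offsets SNHG5 and SNHG6 were not called either. EPB41L4A-AS1 lost its call without DMSO library 1 (0.33, adjusted p = 0.0943) or PK9328 library 3 (0.31, adjusted p = 0.0925), and SNHG12 gained one without DMSO library 2 (0.57, adjusted p = 0.0477).

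**Figure D3:**
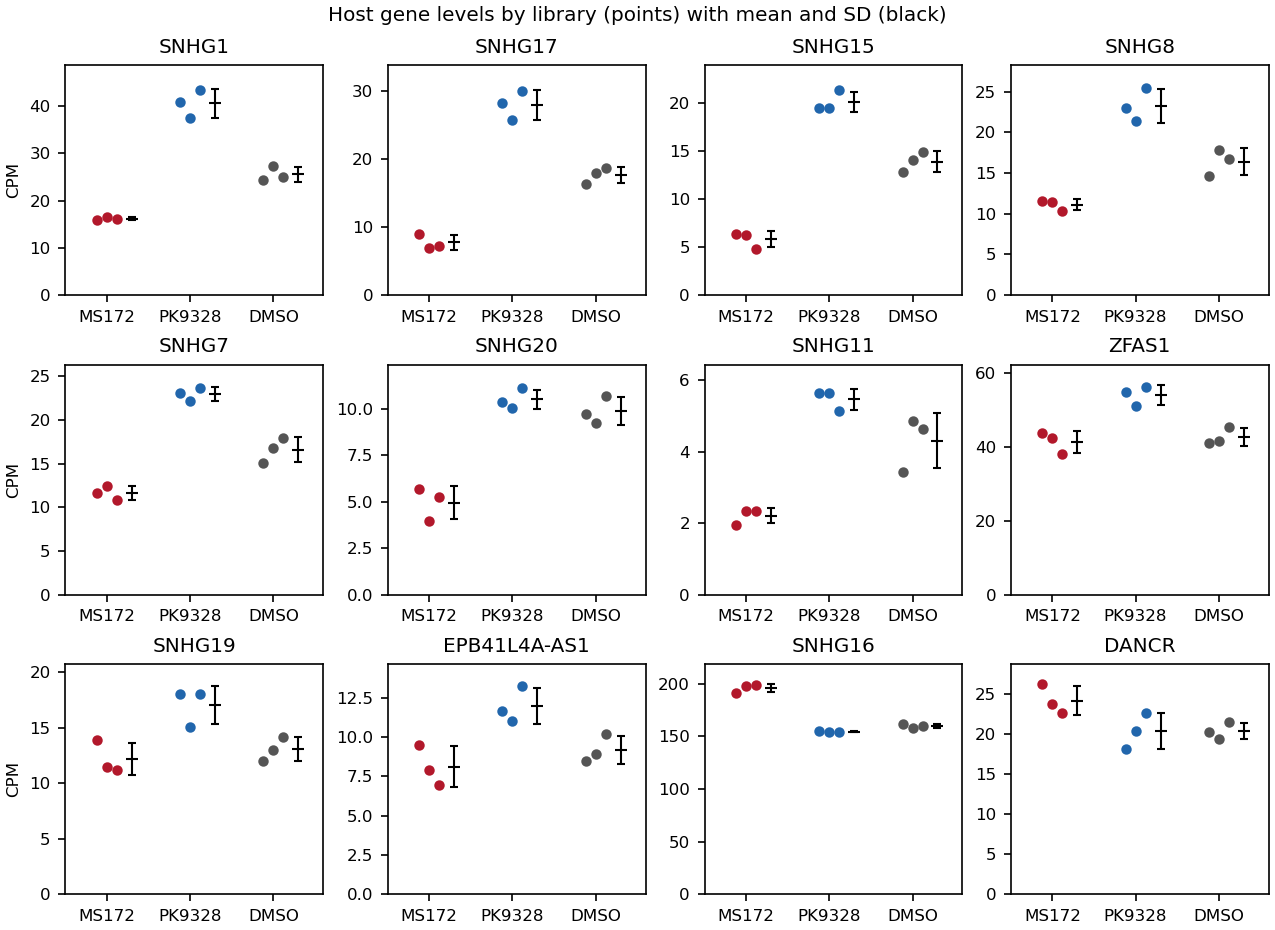
CPM of 12 host genes in each library (points) with the mean and SD of the group (black), MS172 left, PK9328 in the middle and DMSO right. In the panels of SNHG1, SNHG17, SNHG15, SNHG8 and SNHG7 the MS172 points lie below and the PK9328 points above all DMSO points, and in those of SNHG16 and DANCR the MS172 points are the highest or overlap the top.

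The compounds formed 1 pair, MS172 against PK9328. The protocol gives them 1 dose and time only if its MS78 stands for MS172, which the labels do not say. With MS172, 15 of the 24 tested host genes were lower than with PK9328 and 2 were higher (edgeR). Over all genes tested, 24.4% were lower and 23.3% higher, 47.7% in all. The median of the members was -0.51, against -0.03 over all genes. Among members above 1 CPM, the largest differences were those of SNHG17, at -1.85 ± 0.0905 (SE, adjusted p = 8.21e-16), and SNHG15, at -1.79 ± 0.0980 (adjusted p = 3.29e-15), followed by SNHG1 at -1.33 ± 0.0669 (adjusted p = 4.97e-16) and SNHG11 at -1.31 ± 0.161 (adjusted p = 9.26e-08). SNHG17 averaged 7.75 ± 1.15 CPM with MS172 and 27.9 ± 2.16 CPM with PK9328 (SD, n = 3 each). SNHG11 had 1.96, 2.35 and 2.34 CPM with MS172, against 5.65, 5.64 and 5.14 CPM with PK9328, with no overlap.

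SNHG20 (-1.08 ± 0.118, adjusted p = 1.10e-08), SNHG8 (-1.06 ± 0.0855, adjusted p = 2.39e-11) and SNHG7 (-0.99 ± 0.0794, adjusted p = 2.27e-11) also differed by about 1 log2 unit (edgeR). SNHG20 stood at 5.67, 3.95 and 5.26 CPM with MS172, against 10.4, 10.1 and 11.1 CPM with PK9328. GAS5 differed by -0.88 ± 0.0999 (edgeR, adjusted p = 0.000112), averaging 44.0 ± 2.61 CPM with MS172 and 81.0 ± 3.44 CPM with PK9328 (SD, n = 3 each). SNHG12, host of SNORA61 and SNORA44 among others, had 2.53, 2.71 and 2.34 CPM with MS172, against 4.92, 5.27 and 3.61 CPM with PK9328. It was called only in this comparison among the 3, at -0.87 ± 0.184 (edgeR, adjusted p = 0.000301), and its DMSO libraries stood at 2.52, 4.27 and 3.71 CPM, overlapping both. ZFAS1 differed by -0.39 (adjusted p = 1.87e-06), EPB41L4A-AS1 by -0.56 (adjusted p = 0.000124) and SNHG19 by -0.48 (adjusted p = 0.000124) (edgeR), and none of these 3 was called with fragment length as a covariate. SNHG16 and DANCR were higher with MS172, by 0.34 (adjusted p = 2.79e-09) and 0.25 (adjusted p = 0.00914). SNHG3 differed by -0.05 (95% interval -0.16 to 0.06), SNHG5 by -0.08 (SE 0.0393, adjusted p = 0.0914) and SNHG14, the brain-expressed host of the SNORD116 cluster, by -0.20 (-0.44 to 0.04).

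The smaller calls of this comparison depended on single libraries. Without one of 4 libraries each, SNHG6 (-0.14, adjusted p = 0.0457) reached adjusted p of 0.0647 to 0.25 and SNHG4 (-0.54, adjusted p = 0.0274) 0.0657 to 0.093. For SNHG6 these were MS172 libraries 2 and 3 and PK9328 libraries 1 and 3, with log2 fold changes of -0.16 to -0.09, and for SNHG4 MS172 libraries 2 and 3 and PK9328 libraries 1 and 2, with -0.53 to -0.47. SNHG9, at 0.22 CPM on average with MS172 and 0.58 CPM with PK9328, lost its call (-1.35, adjusted p = 0.0371) without MS172 library 2 (-0.99), MS172 library 3 (-1.18) or PK9328 library 3 (-0.96). DANCR lost its call without MS172 library 1 (0.18) or PK9328 library 1 (0.17), SNHG14 gained one without MS172 library 3 (-0.31) or PK9328 library 3 (-0.30), and SNHG5 without MS172 library 1 (-0.11). DANCR was not called with offsets for GC content and length (0.16 and 0.13), with which SNHG5 was called lower (-0.10 and -0.13). SNHG6 and SNHG9 were not called with the replicate number as a block (adjusted p = 0.0598 and 0.053). DESeq2 called 14 of the 17, without SNHG4, SNHG6 and SNHG9. With fragment length as a covariate, 11 host genes were called. The 6 calls lost with it were those of SNHG6 (0.02), SNHG9 (0.53), SNHG4 (-0.70), ZFAS1 (-0.17), SNHG19 (-0.03) and EPB41L4A-AS1 (-0.00028). The remaining tested members, SNHG10, SNHG21, SNHG25 and SNHG26, averaged under 3 CPM in each group and were called in none of the 3 comparisons. SNHG10, with the smallest adjusted p of these, had 2.45, 2.80 and 2.38 CPM with MS172, against 2.06, 1.85 and 1.79 CPM with PK9328 (0.42, adjusted p = 0.099).

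The isoforms of the members were tested in a fit of all 39248 transcripts that passed the filter, of which 102 belonged to host genes. With MS172, 8 host transcripts fell and 1 rose against DMSO, where 1.95% of all transcripts tested fell and 3.12% rose, 5.07% in all (edgeR). With PK9328 against DMSO, 0 host transcripts were called by edgeR, where 0.306% of all transcripts rose and 0.533% fell, 0.838% in all. At an unadjusted p under 0.05, 12 host transcripts were higher and 2 lower in that comparison. With MS172 against PK9328, 14 were lower and 1 higher, where 5.11% of all transcripts were lower and 7.37% higher, 12.5% in all. With fragment length as a covariate, 1 host transcript was called in place of 15, and with the replicate number as a block 10. The estimated reads of overlapping isoforms depend on how the quantification divided shared exons, and that uncertainty is not in the model.

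SNHG1-213, a transcript of 1374 bases and 10 exons, had 2.45, 4.15 and 3.31 CPM with MS172, 19.8, 22.5 and 25.03 CPM with PK9328 and 12.2, 14.2 and 14.2 CPM with DMSO. It made up 20.3% ± 4.81 of the SNHG1 reads with MS172, 55.7% ± 6.33 with PK9328 and 52.5% ± 3.56 with DMSO (SD, n = 3 each). Its level fell by 2.03 on the log2 scale with MS172 against DMSO (edgeR, adjusted p = 0.00198), where the whole gene fell by 0.66. The test of this transcript against the rest of its gene did not pass (edgeR usage test, adjusted p = 0.193). SNHG8-201 made up 29.9% ± 0.530 of its gene's reads with MS172, 62.6% ± 4.74 with PK9328 and 51.7% ± 5.88 with DMSO, and its level fell by 1.36 with MS172 against DMSO (adjusted p = 0.00372, edgeR). SNHG15-203 made up 61.4% ± 6.56 with MS172, 87.9% ± 0.333 with PK9328 and 84.0% ± 2.45 with DMSO, and fell by 1.70 (adjusted p = 0.00189, edgeR). SNHG17-206 had 5.25, 3.62 and 4.23 CPM with MS172, 20.2, 18.6 and 21.3 CPM with PK9328 and 11.01, 11.98 and 13.0 CPM with DMSO. SNHG7-202 and SNHG20-202 also fell with MS172 against DMSO, by 0.62 and 1.31, and SNHG16-202 rose by 0.36 (adjusted p = 0.0142, 0.00493 and 0.00603, edgeR).

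**Figure D4:**
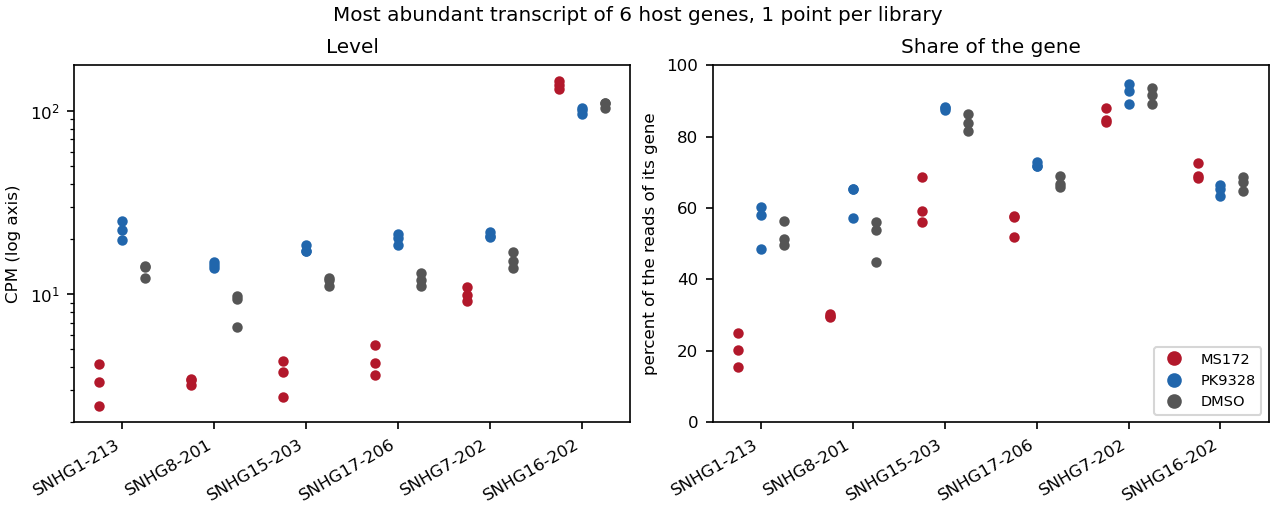
Level in CPM (left, log axis) and percent of the estimated reads of the gene (right) for the most abundant transcript of 6 host genes, 1 point per library, with MS172 left of PK9328 and DMSO within each gene. With MS172, SNHG1-213 and SNHG8-201 average 20.3% and 29.9% of their genes, against means of 55.7% and 62.6% with PK9328 and 52.5% and 51.7% with DMSO.

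The edgeR usage test called 0 host transcripts with MS172 against DMSO (4 at an unadjusted p under 0.05), 2 with PK9328 against DMSO and 2 with MS172 against PK9328, where 1.07%, 0.537% and 2.24% of all transcripts tested were called. The calls were SNHG1-201 and SNHG14-225 with PK9328 against DMSO, and SNHG14-225 and SNHG5-203 with MS172 against PK9328. SNHG1-201, a retained-intron transcript, was listed at 0 in all 3 PK9328 libraries, against 0.265, 2.34 and 1.51 CPM with DMSO. SNHG14-225 was likewise listed at 0 in all 3 PK9328 libraries, and SNHG5-203 in all 3 MS172 libraries. None of these calls was left when transcripts had to reach 1 CPM in 3 libraries.

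GAS5 showed the clearest division between kinds of isoform. Of its 29 annotated transcripts, 19 are annotated as retaining an intron, and these together had 16.5, 15.2 and 14.8 CPM with MS172, 15.98, 14.6 and 17.1 CPM with PK9328 and 14.3, 17.1 and 17.3 CPM with DMSO. These levels overlapped in all 3 groups (two-sided exact permutation p = 0.7 for MS172 against DMSO, 0.9 for PK9328 against DMSO and 0.8 for MS172 against PK9328, n = 3 each). The other 10 transcripts had 30.3, 28.3 and 26.9 CPM with MS172, 66.1, 62.5 and 66.6 CPM with PK9328 and 37.9, 51.9 and 48.1 CPM with DMSO. None of these groups overlapped (exact permutation p = 0.1 in each comparison, the smallest that 3 against 3 can give). The share of GAS5 reads on retained-intron transcripts was 35.3% ± 0.282 with MS172, 19.6% ± 0.757 with PK9328 and 26.2% ± 1.34 with DMSO (SD, n = 3 each; exact permutation p = 0.1 in each comparison). GAS5-221, the main spliced transcript, had 19.9, 16.5 and 17.4 CPM with MS172, 49.8, 44.6 and 48.1 CPM with PK9328 and 27.0, 39.0 and 33.9 CPM with DMSO. It fell by 0.89 with MS172 against DMSO (edgeR, adjusted p = 0.0112).

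SNHG17 showed a like division in the levels of its classes, at lower CPM, but its retained-intron share did not separate either compound from DMSO. Its 3 retained-intron transcripts summed to 0.812 ± 0.363 CPM with MS172, 0.890 ± 0.306 CPM with PK9328 and 0.870 ± 0.269 CPM with DMSO, and its other 5 to 6.94 ± 1.22, 27.1 ± 2.14 and 16.8 ± 1.44 CPM with MS172, PK9328 and DMSO (SD, n = 3 each). The retained-intron sums overlapped (exact permutation p = 0.8, 1 and 0.9), and the others did not (exact permutation p = 0.1 each). The retained-intron share of SNHG17 was 10.7% ± 5.47 with MS172, 3.19% ± 1.07 with PK9328 and 5.01% ± 1.86 with DMSO (SD, n = 3 each). It overlapped between each compound and DMSO (exact permutation p = 0.2 each), and not between the compounds (exact permutation p = 0.1). SNHG11 did not show the division of levels, since both classes were lower with MS172. Its retained-intron transcripts had 0.793 ± 0.131 CPM with MS172 and 1.41 ± 0.251 CPM with DMSO. The others had 1.42 ± 0.231 CPM with MS172 and 2.90 ± 0.561 CPM with DMSO (exact permutation p = 0.1 for each class, SD, n = 3 each). In SNHG1 the retained-intron transcripts had 1.05 ± 0.578 CPM with MS172, 1.77 ± 0.312 CPM with PK9328 and 2.58 ± 1.29 CPM with DMSO, with overlap between MS172 and DMSO. Over all genes of the transcript fit, 2938 tested transcripts were annotated as nonsense-mediated decay substrates. Their median log2 fold changes were -0.12 with MS172 against DMSO, 0.17 with PK9328 against DMSO and -0.33 with MS172 against PK9328. The medians of all transcripts were -0.03, 0.01 and -0.05. The 2899 annotated retained-intron transcripts had medians of -0.04, 0.02 and -0.07 in the same order. All these medians come from the main fit, without the fragment length covariate, and the PK9328 libraries had the shorter fragments. Few of the 2938 were called (edgeR). With MS172 against DMSO, 1.63% fell and 0.681% rose, against 1.95% and 3.12% of all transcripts. With PK9328 against DMSO, 0.0681% rose and 0.136% fell, against 0.306% and 0.533%. With MS172 against PK9328, 5.34% were lower and 1.77% higher, against 5.11% and 7.37%.

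**Figure D5:**
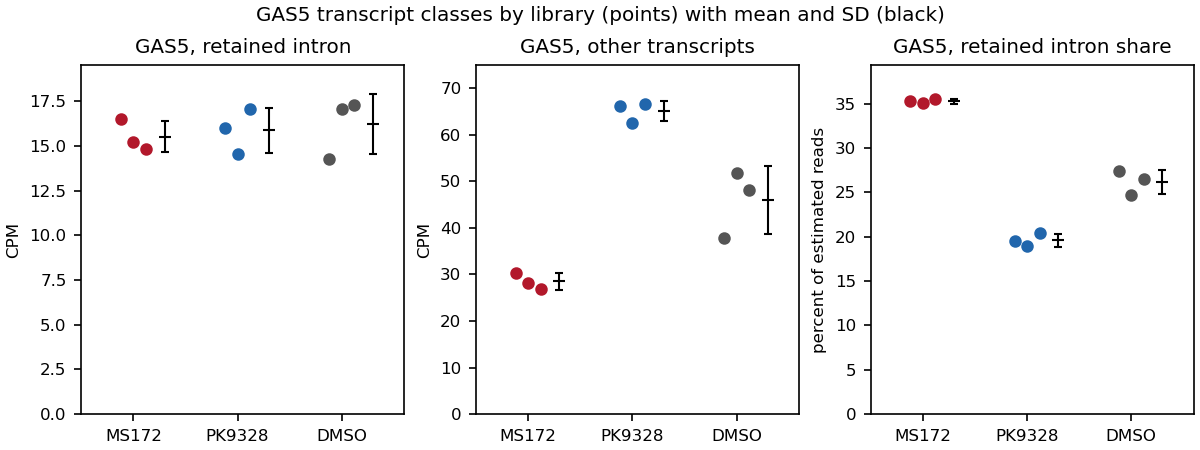
GAS5 reads by transcript class in each library (points), with group mean and SD (black): the CPM of annotated retained-intron transcripts, the CPM of all other transcripts and the percent of estimated reads on retained-intron transcripts. The retained-intron level lies between 14.3 and 17.3 CPM in all 9 libraries, while the other transcripts separate MS172, DMSO and PK9328.

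Coding genes that start head to head with a member did not all follow it. SLC3A2, the heavy chain of an amino acid transporter, starts 188 bases from SNHG1 on the opposite strand and had 329, 331 and 323 CPM with MS172, 511, 510 and 520 CPM with PK9328 and 341, 340 and 355 CPM with DMSO. It rose by 0.57 with PK9328 (adjusted p = 1.72e-13) and was not called with MS172 (-0.08, adjusted p = 0.0906), where SNHG1 fell by 0.66 (edgeR). ZNFX1, 248 bases from ZFAS1, fell by 0.13 with MS172 (adjusted p = 0.0484) and was not called with PK9328 (-0.10, adjusted p = 0.213), where ZFAS1 rose (edgeR). ZBTB37, 800 bases from GAS5, had 1.51, 2.00 and 2.04 CPM with MS172, 2.83, 2.70 and 2.90 CPM with PK9328 and 2.75, 2.67 and 2.61 CPM with DMSO. It fell by 0.53 with MS172 (adjusted p = 0.0284) and was not called with PK9328 (0.07, adjusted p = 0.853, edgeR). TRAF7, 340 bases from SNHG19, was called with neither compound (0.04 with MS172 and -0.04 with PK9328). RPS2, a ribosomal protein gene 99 bases from SNHG9, was not called with MS172 (0.09, adjusted p = 0.119) and fell by 0.13 with PK9328 (adjusted p = 0.0496, edgeR). The partners of untested members were ACAA2, 63 bases from SNHG22 and called with neither compound, and SEMA5A, 125 bases from SNHG18 and not tested. ZNFX1 and ZBTB37 overlap their partners on opposite strands, by 249 and 801 bases, and strand was not stated for the libraries, so reads in the overlap cannot be told apart.

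Genes of the pathways around the host RNAs were counted in the same fit, in which 17.9% of all genes rose and 17.2% fell with MS172 and 7.98% rose and 7.48% fell with PK9328, against DMSO. Of 22 factors of nonsense-mediated decay, all tested, 7 fell and 3 rose with MS172 and 1 fell and 3 rose with PK9328. With a centred offset for GC content and length 4 fell and 5 rose with MS172, and with length-scaled TPM 0 were called with PK9328. SMG9, a partner of the SMG1 kinase, had 18.9, 20.7 and 16.4 CPM with MS172, 37.6, 33.6 and 35.3 CPM with PK9328 and 28.8, 27.9 and 29.9 CPM with DMSO. It fell by 0.63 with MS172 (adjusted p = 6.68e-08) and rose by 0.30 with PK9328 (adjusted p = 0.00202, edgeR). SMG1, the kinase that phosphorylates UPF1, fell by 0.48 with MS172 and rose by 0.23 with PK9328 (adjusted p = 2.50e-05 and 0.0193, edgeR). DCP1A, a decapping factor, went the other way, with 43.7, 44.2 and 48.4 CPM with MS172, 37.6, 34.7 and 35.4 CPM with PK9328 and 35.04, 36.9 and 35.1 CPM with DMSO. It rose by 0.35 with MS172 (adjusted p = 1.05e-05), as did MAGOH, a subunit of the exon junction complex, by 0.28 (adjusted p = 4.02e-05, edgeR). Of 17 coding mRNAs known as decay-sensitive, 6 fell and 5 rose with MS172 (6 each with DESeq2, 5 and 2 with length-scaled TPM), and 1 fell and 8 rose with PK9328. Those 8 rises became 5 with DESeq2 and 4 with fragment length as a covariate. NAT9, an acetyltransferase gene, fell by 0.50 with MS172 and rose by 0.34 with PK9328 (adjusted p = 1.62e-06 and 0.000305, edgeR). DDIT3, a stress transcription factor, had 53.3, 49.7 and 44.0 CPM with MS172, 139, 130 and 145 CPM with PK9328 and 51.8, 58.0 and 57.1 CPM with DMSO. It stands on the list of integrated stress genes as well, of which 14 of 23 tested rose and 4 fell with MS172, and 21 rose with PK9328. With fragment length as a covariate, 13 of these 23 rose with PK9328.

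Genes of ribosomes, translation and snoRNPs were counted as well, to be read against the same shares of all genes. Of 80 tested ribosomal protein genes, 41 rose and 1 fell with MS172, at a median of 0.14, but 13 rose and 14 fell at a median of -0.00015 once the GC and length offset set the library level. With PK9328, 9 rose and 3 fell at a median of 0.08, against 0 and 3 with length-scaled TPM and 0 called with fragment length as a covariate, at a median of -0.10. Of 15 translation factors with pyrimidine starts, 8 rose with MS172 and 1 with PK9328. The 8 rises became 4 with the GC and length offset setting the level, 5 with the replicate number as a block, 5 without MS172 library 2 and 4 without DMSO library 2. Of 19 snoRNP proteins and assembly factors, 7 rose and 2 fell with MS172 (3 each with the GC and length offset setting the level), and 1 rose and 2 fell with PK9328 (0 each with fragment length as a covariate). FBL, the methyltransferase of box C/D particles, rose by 0.14 with MS172 (adjusted p = 0.00479), while NOP56, another box C/D protein, fell by 0.29 (adjusted p = 1.40e-06, edgeR). Coding genes that host a snoRNA, 222 tested, rose in 50 cases and fell in 29 with MS172, and rose in 17 and fell in 29 with PK9328 (4 and 0 with fragment length as a covariate). C6orf48, a snoRNA host annotated as coding, had 35.8, 37.9 and 37.0 CPM with MS172, 66.1, 60.5 and 61.1 CPM with PK9328 and 44.6, 48.1 and 49.4 CPM with DMSO. It fell by 0.36 with MS172 (adjusted p = 5.47e-06) and rose by 0.40 with PK9328 (adjusted p = 1.26e-06, edgeR). HSPA8, another coding host, went the other way, with 1665, 1766 and 1704 CPM with MS172, 1066, 1076 and 1093 CPM with PK9328 and 1311, 1328 and 1353 CPM with DMSO. These lists were chosen with earlier results of the data known, and their counts describe the lists only.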

How the data were processed

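The authors deposited 1 table per library with a TPM value, an estimated count and lengths for each transcript, per the file headers. The sources used here do not give the quantification program, its index or strandedness. FastQC 0.11.8 and hg38 are listed in the submitters' processing notes. Of 197653 transcripts, 193348 matched GENCODE 29 by identifier without version, and unmatched ones held 0.356 to 0.382% of reads.

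Estimated counts were summed per gene and rounded. Genes and transcripts were tested with edgeR 4.0.16 (R 4.3.3; TMM, filterByExpr, quasi-likelihood test, 1 fit of all 9 libraries), with Benjamini-Hochberg adjustment over all features. Transcript usage was tested with diffSpliceDGE of edgeR. The scripts were tested on simulated data. Simulated transcripts were given less spread than the real ones, whose common coefficient of variation was 0.569. That test therefore cannot give the power or error rate of the transcript fit. CPM values use TMM library sizes, and fragment length is each library's median of length minus effective length over long transcripts. Alternatives used DESeq2 1.42.0, limma 3.58.1 and offsets from mgcv 1.9.3. Replicate numbers did not pair the libraries, whose deviations correlated by -0.0569 to 0.0174.

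The members, lists and markers were chosen with earlier results of these data known. Values per library are given for members called in any comparison with a mean of at least 1 CPM, up to 16 by smallest adjusted p, and for GAS5, ZFAS1, EPB41L4A-AS1, DANCR and SNHG1. Up to 4 genes of each list were eligible by smallest p, and head-to-head partners within 1000 bases were included. SNHG4 and SNHG10 values were added after they were seen. Frames come from GENCODE 29 and start windows from RefSeq (GRCh38.p14). The frame sequence of 1 member is not reported here.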

Additional observations from a re-analysis of the deposited data

How the results depend on the processing

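Counts of called host genes with MS172 against DMSO stayed between 10 and 15 over the 11 alternatives, and 9 of the 11 calls held in all of them. With PK9328 against DMSO, 11 calls became 5 with length-scaled TPM and 1 with fragment length as a covariate. With MS172 against PK9328, 17 became 11 with that covariate, and 15 transcript calls became 1. Usage calls (2 in each comparison with PK9328) became 0 when 1 CPM in 3 libraries was required and 0 with the covariate. The replicate numbers did not pair the libraries, and 1 of 9 libraries correlated best with its own number. With the replicate block, host gene calls numbered 11 (MS172 against DMSO), 10 (PK9328 against DMSO) and 15 (MS172 against PK9328), transcript calls 6, 0 and 10, and usage calls 0, 0 and 1 in the same order.

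Leaving out 1 library gave 10 to 12, 9 to 12 and 14 to 17 host gene calls in those comparisons, 7 to 8, 0 to 0 and 10 to 13 transcript calls, and 0 to 1, 0 to 2 and 0 to 1 usage calls. Of the values for single genes, 5 reversed: SNHG5 with MS172 against DMSO (-0.0865, offset for GC content and length setting the level) and, with the fragment length covariate, EPB41L4A-AS1 (-0.1643) and SNHG19 (-0.05287) with PK9328 against DMSO and SNHG6 (0.02292) and SNHG9 (0.529) with MS172 against PK9328. The cause was not tested. The GAS5 retained-intron share, recomputed from TPM after seeing the data, was 35.3% with MS172, 18.4% with PK9328 and 24.7% with DMSO. Members under about 1 CPM have wide intervals at this depth.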
